A study of Ricinus communis with 18 samples.

Results

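Roots of castor (Ricinus communis) that had spent 7 days in 15% PEG-6000 were compared directly with roots that had spent 3 days in it, with no control subtracted. The comparison used the 3 libraries of each group, and its members were all genes with enough counts to be tested, 16085 of the 21332 genes in the table. The series holds 18 libraries of whole root systems in 6 groups of 3: untreated at 3, 7 and 11 days, 15% PEG-6000 for 3 or 7 days, and roots sampled 4 days after the PEG was removed. No cultivar or genotype, plant age or growth medium is given, and all groups share the same tissue. The labels do not state whether replicate libraries were drawn from different plants; all p-values here rest on replicate-to-replicate spread alone, part or all of which could be technical.

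PEG-6000 is a polymer too large to enter root cells, and it lowers the water potential of the medium, so that water is harder to take up. Plants under such osmotic stress make abscisic acid, slow cell expansion, and gather compatible solutes and protective proteins. A comparison of 2 times within the stress asks which transcripts move as it goes on. A whole root system mixes many cell types, and in such samples fewer cells of a type and less RNA per cell cannot be told apart. Within PEG roots the days of stress and the age of the root cannot be told apart, so untreated roots of the same 2 days are given beside the results.

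The 6 PEG libraries held 7800442 to 10817476 counts. Correlations of log2 CPM were 0.888 to 0.957 within the 3-day group, 0.940 to 0.954 within the 7-day group and 0.878 to 0.948 between the groups. The 3-day libraries thus differed from each other about as much as from the 7-day ones, while the 7-day libraries were closer together. In the 3-day group replicate 1 had the highest mean correlation with the 6 untreated libraries of these days (0.882, against 0.824 and 0.877), and in the 7-day group replicate 2 did (0.929, against 0.869 and 0.907). Counts called without both are given with the lists below. Defining root markers were found at low levels, with SHORT-ROOT (ncbi_8283369) at 10.8 and 21.7 FPKM on average at 3 and 7 days and SCARECROW (ncbi_8283041) at 2.95 and 6.39 FPKM. Of the 12 tested genes of root meristem and cap, 7 had values above 0 and 5 below. From lowest to highest this list summed to 24.8, 37.1 and 43.3 FPKM at 3 days and 30.5, 42.8 and 60.4 FPKM at 7 days, which overlap. Of 12 tested genes of root meristem and cap, 3 of the endodermis, 10 of root hair and epidermis, 14 of xylem and 14 of phloem, none was called (at an edgeR adjusted p below 0.05). Median log2 changes of these lists were 0.17, 1.14, 0.40, -1.18 and -0.25. The direction turned under some alternatives for meristem and cap (medians from -0.15 to 0.45), endodermis (-0.37 to 2.02), xylem (-2.74 to 0.16) and phloem (-0.46 to 0.03). The xylem list summed to 3.92, 32.4 and 98.8 FPKM in the 3-day libraries from lowest to highest and to 8.90, 14.9 and 48.1 FPKM in the 7-day libraries, so the groups overlapped.

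Between 3 and 7 days of PEG, 366 genes rose and 332 fell, 698 in all, of which 619 (3.85% of genes) changed at least 2-fold. The 698 were 4.34% of the genes tested (2.28% higher and 2.06% lower), and this share is the background for every count below. The median log2 change of all genes was 0.005. Changes below are log2 differences, 7 days minus 3 days of PEG, each with its SE, and levels are FPKM, which is scaled per gene length. Rising genes took in nitrate carriers, 1 aquaporin, plasma membrane proton pumps, some wall-loosening enzymes and receptor kinases. Another aquaporin fell. Of expansins and xyloglucan enzymes 3 rose and 3 fell, and of pectin enzymes 6 rose and 3 fell. Falling genes took in small heat shock proteins, some enzymes of abscisic acid and jasmonate synthesis, fermentation enzymes, the alternative oxidase and glutathione S-transferases. Of 29 ethylene genes 1 was called (3.45%), a synthesis enzyme that fell. The 3 libraries at 7 days lay entirely above or below the 3 at 3 days, in CPM, for 3882 tested genes, which is 12.9% above and 11.3% below. Of the called genes this held for 361 of the 366 that rose and 327 of the 332 that fell. A lack of overlap therefore adds little to a call.

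The number called depended on the libraries, the scaling and the groups in the fit. All 18 libraries shared the estimate of spread, and a fit of the compared groups alone called 198 genes, 67 higher and 131 lower. Of the 144 genes named by the rule, 57 kept their call in that fit and 86 lost it. Genes that kept their call whichever PEG library was left out could be among those lost, such as nicotianamine synthase-like ncbi_8258799 (edgeR adjusted p = 0.0794). Leaving out 1 PEG library gave from 216 calls (without 7-day replicate 2) to 532 (without 3-day replicate 1), with 320 without 3-day replicate 2, 479 without 3-day replicate 3, 447 without 7-day replicate 1 and 304 without 7-day replicate 3. Without both libraries nearest to the untreated roots 149 genes were called, 70 higher and 79 lower. Of the 698 genes, 174 were called whichever PEG library was left out, 94 of them higher and 80 lower. Where a gene below is followed by a number of 6, that is how many of the 6 fits, each without 1 PEG library, lost its call, with the highest adjusted p. Scaling by library totals gave 635 higher and 223 lower and moved the median of all genes to 0.189. None of the 698 genes changed direction under an alternative that tested it. This was largely fixed in advance, because nearly all of them lacked overlap between the groups.

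**Figure D1:**
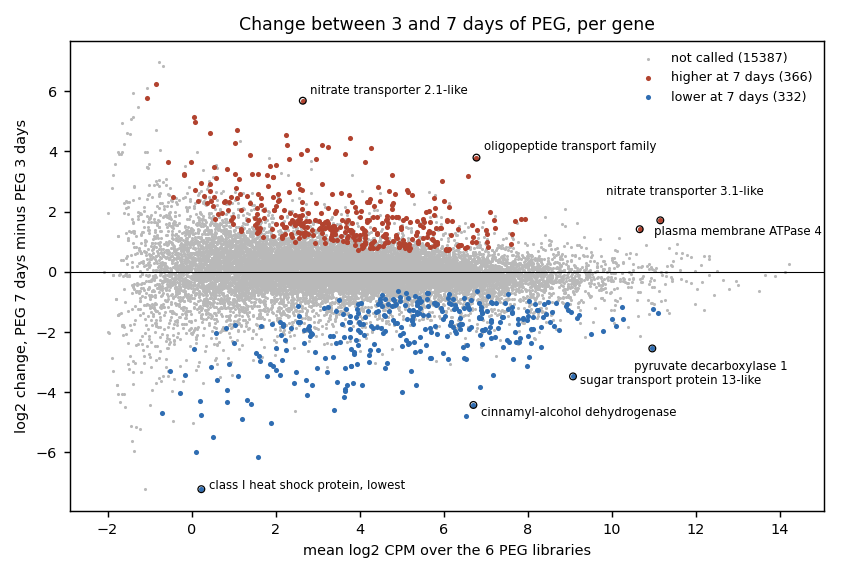
Log2 change between 3 and 7 days of PEG (vertical axis) against mean log2 CPM over the 6 PEG libraries (horizontal axis), with 1 point per tested gene. Red points are the 366 genes higher at 7 days, blue points the 332 lower, and circles mark genes described in the text, such as the 2.1-like nitrate transporter (ncbi_8275209) at 5.69 and the cinnamyl-alcohol dehydrogenase (ncbi_8260964) at -4.42.

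Several genes for the uptake of nitrate and ammonium rose. Plant roots take up scarce nitrate through carriers of the NRT2 family, which work with the small partner protein NRT3.1. One 2.1-like carrier (ncbi_8275209, high-affinity nitrate transporter) had 0.85, 0.22 and 0.17 FPKM at 3 days and 28.3, 26.8 and 16.9 FPKM at 7 days (log2 change 5.69 ± 0.64, SE, adjusted p = 0.000212). All 7-day libraries lay above all 3-day ones, and untreated roots held 42.2 ± 22.7 FPKM at 3 days and 68.5 ± 17.9 FPKM at 7 days (SD, n = 3). A second 2.1-like gene, ncbi_8275206, which is its direct neighbour in the reference annotation, had 47.2, 6.4 and 5.92 FPKM at 3 days and 232, 272 and 116 FPKM at 7 days (3.20 ± 0.78, SE, adjusted p = 0.032). Replicate 1 stood out at 3 days, and the groups still did not overlap. Reads may be split between such copies, so their separate values are uncertain. The partner gene, high-affinity nitrate transporter 3.1-like (ncbi_8278271), was among the most abundant transcripts of the root, with 1307, 787 and 1151 FPKM at 3 days and 4207, 4300.3 and 3488 FPKM at 7 days (1.71 ± 0.27, SE, adjusted p = 0.00298). Its 7-day libraries lay far above the 3-day ones.

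Across 61 transporters of nitrate, ammonium, phosphate and sulfate, 5 rose and 2 fell (11.5% called, median log2 change 0.30). Beyond the 2 largest of each direction in a list, called members were named after their values were seen, here and below. An ammonium transporter (ncbi_8258661) rose by 2.46 ± 0.44. A sulfate transporter 3.1-like gene (ncbi_8280865) had no counts at 3 days and 19 over the 3 libraries at 7 days, at least 5.96-fold higher when set against a floor of 3 counts over the group. A gene listed as a proton-dependent oligopeptide transport family protein (ncbi_8284629), of the family that also holds the low-affinity nitrate and peptide carriers, had 4.36, 16.5 and 10.8 FPKM at 3 days and 142, 218 and 146 FPKM at 7 days (3.80 ± 0.42, SE, adjusted p = 0.000196). The groups were far apart, with no overlap. Ferredoxin-dependent glutamate synthase (ncbi_8270489), which builds glutamate from ammonium carried by glutamine, rose by 1.26 ± 0.27 and was the only call among 12 genes of nitrogen assimilation, and was not called without both libraries nearest to the untreated roots.

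In the opposite direction, a phosphate transporter (ncbi_8275509) had 22.5, 25.3 and 31.1 FPKM at 3 days and 2.15, 2.12 and 2.3 FPKM at 7 days (-3.76 ± 0.38, SE, adjusted p = 0.000196). Its level at 7 days varied little between libraries, and untreated roots held 2.5 ± 0.678 FPKM at 3 days and 2.49 ± 0.361 FPKM at 7 days. The other fall was NRT1/PTR FAMILY 2.7-like (ncbi_8289754, -3.21 ± 0.60, SE, adjusted p = 0.00705), of a family whose Arabidopsis namesake exports nitrate from roots, with 31.9, 13.7 and 8.26 FPKM at 3 days and 3.26, 0.89 and 2.32 FPKM at 7 days. Leaving out any 1 PEG library kept the calls of the 2.1-like nitrate transporter, the 3.1-like partner, the oligopeptide transport family gene, the phosphate transporter, the ammonium transporter and NRT1/PTR FAMILY 2.7-like. No call remained for the second 2.1-like gene without 3-day replicates 2 and 3 or 7-day replicates 1 and 2 (adjusted p up to 0.107), the sulfate transporter without 3-day replicates 2 and 3 or 7-day replicates 2 and 3 (adjusted p up to 0.0658) and glutamate synthase without 3-day replicate 2 or 7-day replicate 2 (adjusted p up to 0.0863). Without both libraries nearest to the untreated roots, 5 members of the list were higher and 1 lower. The sulfate transporter (adjusted p = 0.119) and NRT1/PTR FAMILY 2.7-like (adjusted p = 0.087) were not called in that fit. Its 5 higher members were therefore not all the same genes as those above.

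Several genes of metal and potassium handling also rose. Nicotianamine is a chelator that carries iron, zinc and copper within the plant. A nicotianamine synthase-like gene (ncbi_8258799) had 1.12, 0.46 and 0 FPKM at 3 days and 6.94, 7.7 and 11.3 FPKM at 7 days (3.87 ± 0.57, SE, adjusted p = 0.00185), and a second one (ncbi_8269821) had 29.2, 5.67 and 9.24 FPKM at 3 days and 67.5, 257 and 95.1 FPKM at 7 days (3.03 ± 0.72, SE, adjusted p = 0.0286). Of 59 genes of metal handling 6 rose and 1 fell. The other rises were zinc transporter 10 precursor (ncbi_8266080, 1.83 ± 0.47), zinc transporter 6 (ncbi_8264495, 1.67 ± 0.28), the metal-nicotianamine transporter YSL3 (ncbi_8276858, 1.34 ± 0.29) and ferric reduction oxidase 7 (ncbi_8262647, 1.30 ± 0.30). The fall was a zinc transporter of high level (ncbi_8287759, 1180 to 586 FPKM on average, -1.17 ± 0.31). Among 55 genes of potassium and sodium transport 5 rose and 0 fell, with a median log2 change of 0.46. Potassium transporter 5-like (ncbi_8285713), of the high-affinity uptake family, had 6.11, 1.98 and 7.23 FPKM at 3 days and 13.6, 24.7 and 23.5 FPKM at 7 days (1.82 ± 0.44, SE, adjusted p = 0.031), and another potassium transporter (ncbi_8262007) had 5.48, 5.08 and 6.82 FPKM at 3 days and 16.1, 28.9 and 17.1 FPKM at 7 days (1.64 ± 0.24, SE, adjusted p = 0.00202). The others were potassium transporter 11 (ncbi_8289498, 1.26 ± 0.24), potassium transporter 3 (ncbi_8287540, 1.17 ± 0.31) and a 2-pore potassium channel (ncbi_8278112, 1.00 ± 0.27). Nicotianamine synthase-like ncbi_8258799, zinc transporter 6 and the other potassium transporter stayed called whichever PEG library was left out. Calls ended for its second copy without 3-day replicates 2 and 3 or 7-day replicate 2 (adjusted p up to 0.12) and potassium transporter 5-like without 3-day replicates 1 and 2 or 7-day replicates 2 and 3 (adjusted p up to 0.0984). With both libraries nearest to the untreated roots left out, 3 metal genes were higher and 0 lower, and 1 potassium gene was higher and 0 lower. Among the other genes of the paragraph, ncbi_8289498 kept the call in every such fit. Calls that depended on single PEG libraries were those of ncbi_8266080 (5 of 6, up to 0.121), ncbi_8276858 (3 of 6, up to 0.0586), ncbi_8262647 (4 of 6, up to 0.0965) and ncbi_8287759 (5 of 6, up to 0.168). Fits without 1 PEG library lost ncbi_8287540 (5 of 6, up to 0.178). Every one of the 6 fits without a PEG library lost ncbi_8278112 (adjusted p up to 0.156).

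Water channels and proton pumps moved too. Proton pumps of the plasma membrane acidify the wall and supply the driving force for nutrient uptake. Plasma membrane ATPase 4 (ncbi_8286312) had 289, 142 and 281 FPKM at 3 days and 722, 867 and 556 FPKM at 7 days (1.42 ± 0.30, SE, adjusted p = 0.0149), and the groups did not overlap. ATPase 10 (ncbi_8273043) rose by 1.04 ± 0.24, from 10.6 to 25 FPKM. Of the other 4 pump genes tested, 3 had higher values at 7 days without passing the test, the largest being plasma membrane ATPase 1 (ncbi_8276012, 1.60 ± 0.51, SE, adjusted p = 0.0862). This list of 6 was put together after values were seen. Among 24 aquaporins, the water channels of the cell membranes, 1 rose and 1 fell. The plasma membrane aquaporin PIP2-8-like (ncbi_8278125) had 1.44, 0.39 and 1.73 FPKM at 3 days and 10.2, 33.4 and 12.7 FPKM at 7 days (3.75 ± 0.53, SE, adjusted p = 0.00132). Untreated roots held 33.9 ± 12.3 FPKM at 3 days and 28.7 ± 8.8 FPKM at 7 days. Aquaporin SIP2.1 (ncbi_8289527), of the small basic intrinsic proteins, had 83.4, 98.8 and 105 FPKM at 3 days and 36.4, 52.3 and 57.2 FPKM at 7 days (-1.17 ± 0.28, SE, adjusted p = 0.0269). With any 1 PEG library left out, PIP2-8-like stayed called. Not called any more were plasma membrane ATPase 4 without 3-day replicate 2 or 7-day replicate 2 (adjusted p up to 0.0679), ATPase 10 without 3-day replicates 2 and 3 or 7-day replicates 2 and 3 (adjusted p up to 0.105) and SIP2.1 without 3-day replicates 2 and 3 or 7-day replicates 1, 2 and 3 (adjusted p up to 0.0934). Neither pump was called without both libraries nearest to the untreated roots, and of the aquaporins 1 was higher and 0 lower.

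**Figure D2:**
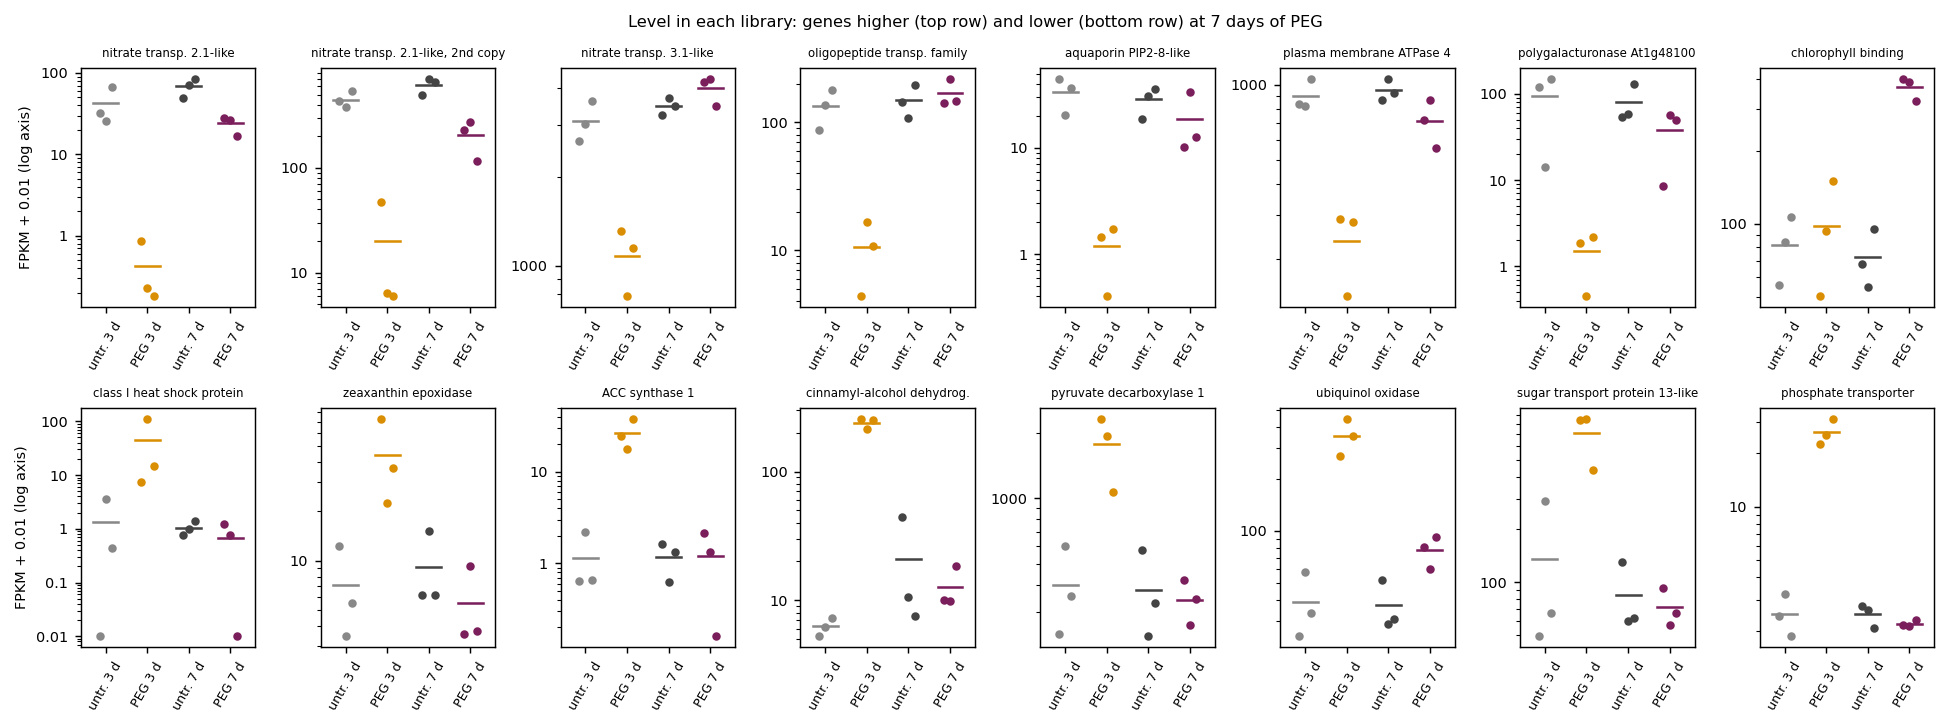
FPKM of 16 genes in each library of 4 groups (untreated and PEG at 3 and 7 days), on a log axis with 0.01 added. Points are libraries and bars group means; the 3 PEG libraries at 7 days lie above those at 3 days in the top row and below them in the bottom row.

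Enzymes that loosen or cut the wall rose in part. Expansins let wall polymers slip during growth, and polygalacturonases and pectinesterases act on pectin, the gel that holds cells together. Of 69 pectin enzymes and their inhibitors 6 rose and 3 fell (13% called, median log2 change -0.15). Of 52 expansins and xyloglucan enzymes 3 rose and 3 fell (11.5% called, median log2 change -0.16). Polygalacturonase At1g48100 (ncbi_8282586) had 1.84, 0.44 and 2.16 FPKM at 3 days and 8.57, 56.4 and 49.3 FPKM at 7 days (4.44 ± 0.84, SE, adjusted p = 0.00805). A second gene of that name (ncbi_8261315) had 2.46, 0.16 and 0.17 FPKM at 3 days and 2.78, 19.9 and 31.6 FPKM at 7 days (4.06 ± 1.01, SE, adjusted p = 0.0345). In both, replicate 1 at 7 days was far below the other two. Expansin-A8 (ncbi_8259547) had 5.76, 0.09 and 1.3 FPKM at 3 days and 5.66, 64.8 and 78.4 FPKM at 7 days, a range at 7 days that began within that at 3 days, with a log2 change of 4.14 ± 1.00, SE, adjusted p = 0.0305. Beta-expansin 4 (ncbi_8265844) had the same uneven pattern, with 0.87, 0 and 0.27 FPKM at 3 days and 0.73, 18.1 and 16.8 FPKM at 7 days (4.70 ± 1.19, SE, adjusted p = 0.037). A pectinesterase-like gene (ncbi_107260759) rose by 4.29 ± 1.07, a probable polygalacturonase (ncbi_8286669) by 2.57 ± 0.64, pectinesterase 53 (ncbi_8265139) by 2.36 ± 0.42 and a polygalacturonase inhibitor-like gene (ncbi_8277505) by 1.72 ± 0.36. Xyloglucanase 113 (ncbi_8280137) rose by 1.28 ± 0.26. The same leave-one-out fits all kept ncbi_8265139. Left-out PEG libraries cost ncbi_107260759 (5 of 6, up to 0.116), ncbi_8286669 (4 of 6, up to 0.12), ncbi_8277505 (2 of 6, up to 0.0687) and ncbi_8280137 (7-day replicate 2, adjusted p = 0.0656) the call.

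Other wall genes fell over the same days. Expansin A4 (ncbi_8282200) had 384, 144 and 206 FPKM at 3 days and 62.6, 112 and 113 FPKM at 7 days (-1.55 ± 0.33, SE, adjusted p = 0.0141). A xyloglucan endotransglucosylase/hydrolase (ncbi_8278518), of enzymes that cut and rejoin xyloglucan chains, had 128, 124 and 93.5 FPKM at 3 days and 44.3, 55 and 40.9 FPKM at 7 days (-1.49 ± 0.28, SE, adjusted p = 0.00696). Pectin acetylesterase 7 (ncbi_8280115) was the more abundant, with 1656, 1269 and 1491 FPKM at 3 days and 891, 509.8 and 711 FPKM at 7 days (-1.22 ± 0.33, SE, adjusted p = 0.0466). A pair of pectinesterases (ncbi_8259027, -1.84 ± 0.50, and ncbi_8259032, -2.87 ± 0.73) and a low-level xyloglucan endotransglucosylase (XLOC_007239, -3.43 ± 0.87) also fell. Genes of cellulose, xylan and secondary walls had 3 higher and 0 lower of 47, the xylan enzyme IRX7 (ncbi_8275278, 1.52 ± 0.24) and a pair of COBRA-like proteins (ncbi_8265475, 2.05 ± 0.35, and ncbi_8265061, 1.61 ± 0.38). Leaving out any 1 PEG library kept the calls of polygalacturonase ncbi_8282586, the xyloglucan endotransglucosylase ncbi_8278518 and IRX7. The call was lost for polygalacturonase ncbi_8261315 without 3-day replicates 2 and 3 or 7-day replicates 2 and 3 (adjusted p up to 0.115), beta-expansin 4 without 3-day replicates 1, 2 and 3 or 7-day replicates 2 and 3 (adjusted p up to 0.12) and expansin-A8 without 3-day replicates 2 and 3 or 7-day replicates 2 and 3 (adjusted p up to 0.0968). No call remained for expansin A4 without 3-day replicate 1 or 7-day replicates 1 and 2 (adjusted p up to 0.0634) and pectin acetylesterase 7 without 3-day replicates 1, 2 and 3 or 7-day replicates 2 and 3 (adjusted p up to 0.184). Without both libraries nearest to the untreated roots the pectin list had 1 higher and 0 lower and the expansin list 1 higher and 0 lower. The cellulose and xylan list then had 2 higher and 0 lower. Calls also held for ncbi_8265475 in each of these fits. Losses with 1 PEG library left out were found for ncbi_8259027 (5 of 6, up to 0.163), ncbi_8259032 (4 of 6, up to 0.225), XLOC_007239 (5 of 6, up to 0.14) and ncbi_8265061 (4 of 6, up to 0.107).

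Receptor kinases and growth regulators were among the genes that rose. Leucine-rich repeat receptor kinases read peptides and other signals at the cell surface, and of 140 tested 10 rose and 3 fell (9.29% called, median log2 change 0.27). The largest rise was that of At4g08850 (ncbi_8260794), with 0.59, 0.61 and 1.22 FPKM at 3 days and 5.58, 10.1 and 5.31 FPKM at 7 days (2.91 ± 0.43, SE, adjusted p = 0.00209), and a kinase listed as probably inactive (ncbi_8275668) rose by 2.19 ± 0.35. A G-type lectin receptor kinase RLK1 (ncbi_8272654) had 0.2, 0.33 and 0.36 FPKM at 3 days and 4.36, 12 and 3.25 FPKM at 7 days (4.23 ± 0.55, SE, adjusted p = 0.000907). The falls were another At4g08850 entry with 79.2, 49.4 and 47.1 FPKM at 3 days and 9.21, 18.2 and 22.4 FPKM at 7 days (ncbi_8277151, -2.03 ± 0.44, SE, adjusted p = 0.0159), RPK2 (ncbi_8264707, -1.08 ± 0.30) and a low-level gene (ncbi_8289115, -3.92 ± 0.83). An F-box protein (ncbi_8276207), of the family that picks proteins for breakdown, had 0.86, 1.67 and 1.25 FPKM at 3 days and 16.9, 31.6 and 32.6 FPKM at 7 days (4.21 ± 0.46, SE, adjusted p = 0.000196). At4g08850, RLK1, the F-box protein and the probably inactive kinase stayed called whichever PEG library was left out. No call remained for the falling kinase ncbi_8277151 without 7-day replicates 1 and 2 (adjusted p up to 0.0679). Of the leucine-rich repeat kinases 4 were higher and 0 lower without both libraries nearest to the untreated roots. For ncbi_8289115 (3 of 6, up to 0.084) the call ended on leaving out single libraries. Whichever PEG library was left out, ncbi_8264707 (adjusted p up to 0.18) lost the call.

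DELLA proteins hold back growth until gibberellin removes them, and DELLA protein SLR1-like (ncbi_8276206) had 5.15, 4.15 and 4.17 FPKM at 3 days and 27.5, 36.7 and 29.1 FPKM at 7 days (2.60 ± 0.47, SE, adjusted p = 0.00615). The 2 gibberellin 20 oxidases called, enzymes of gibberellin synthesis, also rose from low levels (ncbi_8258329, 2.34 ± 0.58, and ncbi_8287385, 1.49 ± 0.36), and no gene of that list of 25 fell. Cytokinin dehydrogenase 7 (ncbi_8258580), which breaks down cytokinin, had 7.13, 15 and 20.4 FPKM at 3 days and 64, 98.2 and 53.7 FPKM at 7 days (2.16 ± 0.34, SE, adjusted p = 0.00268), and a pair of histidine kinase 2 entries, cytokinin receptors, rose (ncbi_8273557, 1.26 ± 0.32, and XLOC_003047, 1.36 ± 0.37). The response regulator ARR5 (ncbi_8270367), whose Arabidopsis namesake is switched on by cytokinin, fell with 11.7, 3.68 and 6.92 FPKM at 3 days and 1.77, 3.47 and 1.41 FPKM at 7 days (-1.93 ± 0.46, SE, adjusted p = 0.0291). Of 75 auxin genes 5 rose and 2 fell. The auxin efflux carrier 1c (ncbi_8283128) had 7.88, 2.93 and 7.64 FPKM at 3 days and 16.4, 29.3 and 27.9 FPKM at 7 days (1.80 ± 0.28, SE, adjusted p = 0.00284), and auxin response factors 5 (ncbi_8274635, 0.98 ± 0.22) and 10 (ncbi_8266270, 0.91 ± 0.24), IAA26-like (ncbi_8273774, 0.86 ± 0.21) and AUXIN RESPONSE 4 (ncbi_8285568, 0.83 ± 0.22) rose as well. Another auxin efflux carrier family gene (ncbi_8281331) fell with 5.3, 38.2 and 15.3 FPKM at 3 days and 2.23, 1.48 and 1.52 FPKM at 7 days (-3.66 ± 0.71, SE, adjusted p = 0.00926), and a GH3 family gene (ncbi_8263567), of enzymes that join auxin or other hormones to amino acids, with 137, 138 and 161 FPKM at 3 days and 46.8, 54.9 and 66.3 FPKM at 7 days (-1.56 ± 0.25, SE, adjusted p = 0.00305). Of 60 bHLH transcription factors 3 rose and 0 fell: bHLH77-like (ncbi_8270326, 1.67 ± 0.27), bHLH62 (ncbi_8262028, 1.25 ± 0.26) and bHLH143-like (ncbi_8266832, 1.19 ± 0.23). The clock gene LHY (ncbi_8270765) had 8.65, 7.72 and 12.6 FPKM at 3 days and 35.4, 34.3 and 34.9 FPKM at 7 days (1.69 ± 0.35, SE, adjusted p = 0.0137). It was the only call among 20 clock genes, and the hour of sampling is not given. With any 1 PEG library left out, the GH3 gene, SLR1-like, cytokinin dehydrogenase 7 and efflux carrier 1c stayed called. Calls ended for ARR5 without 3-day replicate 1 or 7-day replicates 1 and 3 (adjusted p up to 0.117), the falling efflux carrier without 7-day replicate 2 (adjusted p = 0.06) and LHY without 3-day replicate 2 (adjusted p = 0.0633). In the fit without both libraries nearest to the untreated roots the gibberellin list had 0 calls, the cytokinin list 1 higher and 0 lower, the auxin list 1 higher and 2 lower, bHLH factors 1 higher and the clock list 0 calls. The same leave-one-out fits all kept ncbi_8270326 and ncbi_8266832. Single libraries ended the calls of ncbi_8258329 (5 of 6, up to 0.12), ncbi_8287385 (5 of 6, up to 0.0903), ncbi_8274635 (5 of 6, up to 0.0842) and ncbi_8273774 (4 of 6, up to 0.114). Calls that depended on single PEG libraries were those of ncbi_8285568 (4 of 6, up to 0.163) and ncbi_8262028 (2 of 6, up to 0.0658). Every one of the 6 fits without a PEG library lost ncbi_8273557 (adjusted p up to 0.143), XLOC_003047 (adjusted p up to 0.198) and ncbi_8266270 (adjusted p up to 0.161).

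Transcripts for chloroplast proteins were present in these roots and rose in part. Of 53 tested genes of a photosynthesis list, which marks shoot tissue or greened roots, 4 rose and 0 fell (7.55% called, median log2 change 0.79), and 46 of 53 had a value above 0. The list summed to 1590, 2380 and 2510 FPKM in the 3-day libraries and to 3140, 3190 and 3910 FPKM in the 7-day libraries, and to between 672 and 1340 FPKM in untreated roots of the same days. Chlorophyll a-b binding protein 151 (ncbi_8273545), an antenna protein, had 50.1, 93.8 and 150.1 FPKM at 3 days and 399, 386 and 324 FPKM at 7 days (1.75 ± 0.39, SE, adjusted p = 0.0212). The others were a Rubisco activase of low level (ncbi_8274858, 0.597 to 5.89 FPKM on average, 3.16 ± 0.72), oxygen-evolving enhancer protein 3-2 (ncbi_8267413, 1.85 ± 0.44) and photosystem I subunit O (ncbi_8263317, 1.72 ± 0.41). The LHCII type 1 antenna gene (ncbi_8264152) had the highest level of the list, 744 and 901 FPKM on average at 3 and 7 days, and did not pass the test (adjusted p = 0.956). Other members had lower values at 7 days: Rubisco activase 2 (ncbi_8276600), at 127 and 34.3 FPKM (-2.04 ± 0.71, SE, adjusted p = 0.118), and an LHCII type 1-like gene (ncbi_8265899), at 49.7 and 8.65 FPKM (-2.69 ± 0.78, SE, adjusted p = 0.0634), neither past the test. Of 70 listed genes 11 were at 0 in all 6 libraries, among them 1 entry each for the Rubisco large subunit, its small chain and the photosystem II D1 protein. Other entries for these proteins were detected, a Rubisco large chain (ncbi_8279310) at 1.7 and 1.22 FPKM and a D1 protein (ncbi_11542408) at 7.27 and 13.8 FPKM. The part of shoot tissue or greening in any result here was not tested. Fits without 1 PEG library lost ncbi_8267413 (4 of 6, up to 0.107) and ncbi_8263317 (4 of 6, up to 0.13).

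Plastid enzymes of carbon fixation, a list drawn up after values were seen, had 4 higher and 0 lower of 14 (28.6% called). Fructose-bisphosphate aldolase 1 of the chloroplast (ncbi_8284370) had 1.99, 4.56 and 6.74 FPKM at 3 days and 34.6, 24.4 and 20.4 FPKM at 7 days (2.42 ± 0.49, SE, adjusted p = 0.0116). Glyceraldehyde-3-phosphate dehydrogenase A (ncbi_8273055) had 4.18, 6.24 and 9.18 FPKM at 3 days and 42.5, 27.8 and 31.4 FPKM at 7 days (2.22 ± 0.44, SE, adjusted p = 0.00982). The chloroplast phosphoglycerate kinase (ncbi_8259994, 1.35 ± 0.34) and the triose phosphate translocator TPT (ncbi_8258423, 1.23 ± 0.31), which exports fixed carbon from the plastid, also rose. Leaving out any 1 PEG library kept the calls of the aldolase and the dehydrogenase. Not called any more were chlorophyll a-b binding protein 151 without 3-day replicates 1 and 2 or 7-day replicates 1 and 2 (adjusted p up to 0.0734) and Rubisco activase without 3-day replicates 1 and 2 or 7-day replicate 1 (adjusted p up to 0.088). Neither list held a call without both libraries nearest to the untreated roots, although the medians were then 0.75 and 1.20. Left-out PEG libraries cost ncbi_8258423 (4 of 6, up to 0.148) the call. Every one of the 6 fits without a PEG library lost ncbi_8259994 (adjusted p up to 0.0938).

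**Figure D3:**
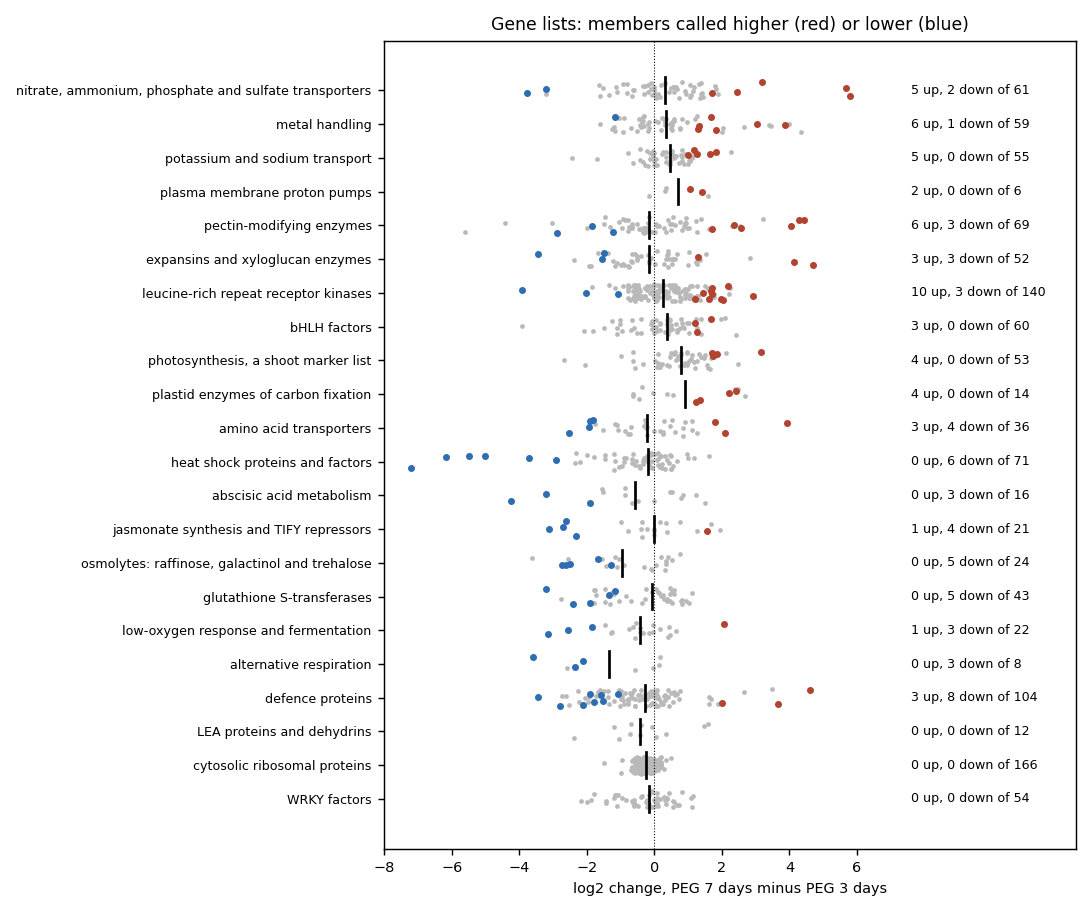
Log2 change between 3 and 7 days of PEG for the tested members of 22 gene lists, 1 row per list and 1 point per gene. Red and blue points are genes called higher and lower, the black bar is the list's median, and the counts stand at the right; 4.34% of all tested genes were called.

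Small heat shock proteins, chaperones that hold damaged proteins in solution, were among the largest falls. Of 71 heat shock proteins and factors 0 rose and 6 fell (8.45% called). The 17.3 kDa class I protein (XLOC_012223) had 7.48, 111 and 14.8 FPKM at 3 days and 1.21, 0.77 and 0 FPKM at 7 days (-6.17 ± 1.22, SE, adjusted p = 0.0103). The 17.9 kDa class II protein (ncbi_8258553) had 9.06, 50.8 and 9.41 FPKM at 3 days and 0.97, 1.2 and 0.16 FPKM at 7 days (-5.02 ± 0.89, SE, adjusted p = 0.00558). In both, replicate 2 stood far above the others at 3 days, and the 7-day libraries were all below the 3-day ones. The 18.1 kDa class I protein (ncbi_8287248) had 175 counts over the 3-day libraries and 1 over the 7-day libraries, a ratio of 186 (95% interval 32.9 to 7390, counting error only). A mitochondrial 23.6 kDa protein (ncbi_8266073) had 251, 353 and 137 FPKM at 3 days and 56.1, 25.4 and 27.8 FPKM at 7 days (-2.91 ± 0.74, SE, adjusted p = 0.0368). Heat shock protein 83 (ncbi_8277096) and a 70 kDa protein (ncbi_8280262) fell as well (-3.70 ± 0.92 and -5.50 ± 1.18), both highest in replicate 2 at 3 days. Losses with 1 PEG library left out were found for ncbi_8277096 (4 of 6, up to 0.223) and ncbi_8280262 (3 of 6, up to 0.088).

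A few chaperones that work with them fell as well. ClpB1 (ncbi_8284441), which pulls apart aggregated proteins, had 3.81, 31 and 9.26 FPKM at 3 days and 1.08, 1.04 and 0.67 FPKM at 7 days (-4.16 ± 0.67, SE, adjusted p = 0.00305). A list of 98 DnaJ, ClpB and BAG genes, made after values were seen, had 0 higher and 4 lower. Its other members called were the chloroplast dnaJ 11-like (ncbi_8274672, -3.02 ± 0.73), dnaJ 8 (ncbi_8280257, -2.50 ± 0.54) and BAG regulator 6-like (ncbi_8286753, -2.94 ± 0.73). The 17.9 kDa protein and ClpB1 stayed called whichever PEG library was left out. The call was lost for the 17.3 kDa protein without 3-day replicate 2 or 7-day replicate 2 (adjusted p up to 0.0611), the 18.1 kDa protein without 3-day replicate 2 or 7-day replicates 2 and 3 (adjusted p up to 0.0645) and the 23.6 kDa protein without 3-day replicates 1 and 2 or 7-day replicates 2 and 3 (adjusted p up to 0.143). Without both libraries nearest to the untreated roots 3 of the heat shock list were lower. The co-chaperone list had 1 lower in that fit. For ncbi_8274672 (3 of 6, up to 0.12), ncbi_8280257 (3 of 6, up to 0.084) and ncbi_8286753 (4 of 6, up to 0.235) the call ended on leaving out single libraries.

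Genes of stress hormone synthesis fell in part. Abscisic acid is made from carotenoids by way of zeaxanthin epoxidase, and of 16 genes of its metabolism 0 rose and 3 fell (18.8% called). Zeaxanthin epoxidase-like ncbi_8267999 had 73.1, 22.5 and 36.8 FPKM at 3 days and 3.56, 9.22 and 3.72 FPKM at 7 days (-3.20 ± 0.67, SE, adjusted p = 0.0138). Its near neighbour ncbi_8267996 had 5.82, 12.2 and 2.19 FPKM at 3 days and 0.09, 0.33 and 0.81 FPKM at 7 days (-4.26 ± 0.74, SE, adjusted p = 0.00472). An abscisate beta-glucosyltransferase-like gene (ncbi_8288174), of enzymes that store the hormone as a sugar ester, had 37.5, 31.5 and 49.8 FPKM at 3 days and 11.8, 15.6 and 8.51 FPKM at 7 days (-1.90 ± 0.36, SE, adjusted p = 0.00752). In these 3 called genes all 7-day libraries lay below the 3-day ones, as in nearly all genes that fell. Of the 16 genes tested, 7 had values above 0 and 9 below. ABSCISIC ACID-INSENSITIVE 5-like protein 7 (ncbi_8286238), a bZIP factor of the response, had 24.2, 37.3 and 30 FPKM at 3 days and 16.9, 13.8 and 17.5 FPKM at 7 days (-1.10 ± 0.30, SE, adjusted p = 0.0465) and was the only call among 26 signalling genes.

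Ethylene is made from its precursor ACC, and 1-aminocyclopropane-1-carboxylate synthase 1 (ncbi_8286682) had 24.7, 17.9 and 38.1 FPKM at 3 days and 2.13, 1.33 and 0.15 FPKM at 7 days (-4.59 ± 0.81, SE, adjusted p = 0.00558). It was the only call among 29 ethylene genes (3.45% called). Among 21 genes of jasmonate synthesis and TIFY repressors 1 rose and 4 fell (23.8% called). Members were matched by product name, so a role in jasmonate synthesis is not known for each of them. 12-oxophytodienoate reductase 2-like (ncbi_8263242) had 91.5, 56.2 and 83.9 FPKM at 3 days and 8.33, 15.2 and 17.5 FPKM at 7 days (-2.70 ± 0.43, SE, adjusted p = 0.00298), and reductase 1-like (ncbi_8263248) fell by 2.33 ± 0.36. A pair of neighbouring TIFY 5A-like genes, whose products are repressors of the jasmonate response, fell (ncbi_8264090, -3.13 ± 0.79, and ncbi_8264089, -2.60 ± 0.52), while TIFY 4B (ncbi_8280777) rose by 1.55 ± 0.31. TIFY 5A-like genes also had lower values at 7 than at 3 days in untreated roots, with a log2 difference of -1.53 ± 0.82 for ncbi_8264090. Among the other genes of the paragraph, ncbi_8263248 and ncbi_8280777 kept the call in every such fit. Single libraries ended the calls of ncbi_8264090 (5 of 6, up to 0.141) and ncbi_8264089 (2 of 6, up to 0.0519).

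Some transcription factors of stress responses fell. The share called was 7.89% of NAC, 2.7% of AP2/ERF and 3.9% of MYB factors, against 4.34% of all genes. Of 77 MYB factors 1 rose and 2 fell, and none of 54 WRKY factors was called. NAC domain-containing protein 2-like (ncbi_8282867) had 30.3, 94.8 and 74 FPKM at 3 days and 5.45, 3.4 and 5.19 FPKM at 7 days (-3.99 ± 0.96, SE, adjusted p = 0.0305), and NAC 69 (XLOC_017492, -2.60 ± 0.63) and NAC 100-like (ncbi_8260944, -1.27 ± 0.31) completed 0 higher and 3 lower of 38. Ethylene-responsive factors ABR1 (ncbi_8279078, -2.87 ± 0.68) and ERF098 (ncbi_8259178, -2.36 ± 0.42) were the calls among 74 AP2/ERF genes. MYB108 (ncbi_8267295) had 22, 64.6 and 20.7 FPKM at 3 days and 7.47, 6.2 and 6.27 FPKM at 7 days (-2.61 ± 0.62, SE, adjusted p = 0.0296). In untreated roots NAC 2-like and MYB108 differed by -1.61 ± 0.92 and -1.46 ± 0.63 over the same days, without passing the test. NIM1-INTERACTING 2 (ncbi_8285793), named for a regulator of salicylic acid responses, had 7.64, 5.65 and 5.77 FPKM at 3 days and 0.56, 0 and 0.49 FPKM at 7 days (-4.31 ± 0.91, SE, adjusted p = 0.0138). With any 1 PEG library left out, zeaxanthin epoxidase ncbi_8267996, the glucosyltransferase, ACC synthase 1, reductase 2-like and ERF098 stayed called. No call remained for zeaxanthin epoxidase ncbi_8267999 without 7-day replicates 1 and 3 (adjusted p up to 0.0707), ABI5-like 7 without 3-day replicates 2 and 3 or 7-day replicates 1, 2 and 3 (adjusted p up to 0.176) and NAC 2-like without 3-day replicates 2 and 3 or 7-day replicates 1, 2 and 3 (adjusted p up to 0.125). Calls ended for MYB108 without 3-day replicate 2 or 7-day replicates 1, 2 and 3 (adjusted p up to 0.123). In the fit without both libraries nearest to the untreated roots, 1 gene of abscisic acid metabolism, 2 of the jasmonate list and 1 AP2/ERF factor were lower. No gene of abscisic acid signalling, ethylene, NAC or MYB lists was called in it. The abscisic acid gene was the glucosyltransferase (adjusted p = 0.0455), while zeaxanthin epoxidases ncbi_8267999 and ncbi_8267996 were not called (adjusted p = 0.0686 and 0.0521). Calls that depended on single PEG libraries were those of XLOC_017492 (4 of 6, up to 0.123), ncbi_8260944 (5 of 6, up to 0.134), ncbi_8279078 (4 of 6, up to 0.116) and ncbi_8285793 (2 of 6, up to 0.0658).

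Some osmolyte genes fell. The trehalose-phosphate synthase family is named for an enzyme that makes a sugar signal, and galactinol synthase starts the raffinose sugars that protect dry cells. Of 24 such genes 0 rose and 5 fell (20.8% called), and the median was -0.97. A trehalose-phosphate synthase (ncbi_8289035) had 94.9, 101 and 95.8 FPKM at 3 days and 19.4, 13.3 and 25.3 FPKM at 7 days (-2.51 ± 0.49, SE, adjusted p = 0.00878), and another (ncbi_8270664) 9.11, 13.8 and 10.1 FPKM at 3 days and 1.96, 2.12 and 1.51 FPKM at 7 days (-2.74 ± 0.66, SE, adjusted p = 0.0299). A further synthase (ncbi_8275177, -1.27 ± 0.25), galactinol synthase 2 (ncbi_8269857, -1.67 ± 0.40) and galactinol-sucrose galactosyltransferase 2 (ncbi_8278254, -2.63 ± 0.66) also fell. Proline is another compatible solute. Proline oxidase (ncbi_8272332), which breaks it down, had 76.1, 15.2 and 20 FPKM at 3 days and 1.82, 1.84 and 4.59 FPKM at 7 days (-3.95 ± 0.73, SE, adjusted p = 0.00678). The synthesis enzyme delta-1-pyrroline-5-carboxylate synthase (ncbi_8287478) did not pass the test (log2 change 0.35 ± 0.18, SE, adjusted p = 0.299), nor did 2 reductases (ncbi_8262056, 0.09 ± 0.42, and ncbi_8286644, -0.19 ± 0.32) or ornithine aminotransferase (ncbi_8262278, 0.09 ± 0.20). Among 12 LEA proteins and dehydrins none was called, and their median was -0.42. Leaving out any 1 PEG library kept the call of proline oxidase. Calls ended for trehalose-phosphate synthase ncbi_8289035 without 7-day replicate 2 (adjusted p = 0.0586) and synthase ncbi_8270664 without 3-day replicate 2 or 7-day replicates 1, 2 and 3 (adjusted p up to 0.112). No member of the osmolyte or proline list was called without both libraries nearest to the untreated roots, where the osmolyte median was -0.76. Fits without 1 PEG library lost ncbi_8275177 (2 of 6, up to 0.0586), ncbi_8269857 (4 of 6, up to 0.115) and ncbi_8278254 (4 of 6, up to 0.182).

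Sugar carriers and sugar breakdown moved in both directions. Sugar transport protein 13-like (ncbi_8259103), a proton-driven hexose carrier, had 842, 857 and 439 FPKM at 3 days and 92.2, 56.8 and 66.8 FPKM at 7 days (-3.48 ± 0.67, SE, adjusted p = 0.00884). Sugar carrier protein C (ncbi_8275367) had 478, 148 and 205 FPKM at 3 days and 107, 92 and 98.4 FPKM at 7 days (-1.66 ± 0.37, SE, adjusted p = 0.0215). Among 32 sugar transporters 3 rose and 3 fell; the rises were a UDP-sugar transporter (ncbi_8265207, 1.96 ± 0.37), sugar carrier protein A (ncbi_8262851, 1.35 ± 0.30) and ERD6-like 5 (ncbi_8288500, 1.09 ± 0.28). ERD6-like 16 (ncbi_8262358), with 462, 46.3 and 126 FPKM at 3 days and 27.6, 36.3 and 89.3 FPKM at 7 days, fell by 2.25 ± 0.60, and its groups overlapped. Alpha-amylase (ncbi_8278871, -2.01 ± 0.42) and a neutral/alkaline invertase (ncbi_8261302, -1.68 ± 0.33) fell, and a starch branching enzyme (ncbi_8278160, 1.30 ± 0.23) rose. In glycolysis, 4 of 56 genes rose and 3 fell. One phosphofructokinase (ncbi_8273761) had 3.93, 0.27 and 2.13 FPKM at 3 days and 36.9, 65.8 and 23.2 FPKM at 7 days (4.12 ± 0.63, SE, adjusted p = 0.00249), and another (ncbi_8265118) went the other way with 80.4, 82 and 43.5 FPKM at 3 days and 24.8, 37 and 20.5 FPKM at 7 days (-1.52 ± 0.31, SE, adjusted p = 0.0126). Hexokinase-1-like (ncbi_8265150) had 147, 107 and 89.9 FPKM at 3 days and 49.2, 40.3 and 48.2 FPKM at 7 days (-1.50 ± 0.31, SE, adjusted p = 0.0138). The rising phosphofructokinase stayed called whichever PEG library was left out. Not called any more were sugar transport protein 13-like without 7-day replicate 2 (adjusted p = 0.0586), sugar carrier protein C without 3-day replicate 1 or 7-day replicates 2 and 3 (adjusted p up to 0.0979) and the falling one without 3-day replicate 2 or 7-day replicate 3 (adjusted p up to 0.0707). The call was lost for hexokinase-1-like without 7-day replicates 2 and 3 (adjusted p up to 0.0801). No sugar transporter was called without both libraries nearest to the untreated roots, where glycolysis had 1 higher and 0 lower and starch and sugar breakdown 1 higher and 0 lower. Among the other genes of the paragraph, ncbi_8265207 and ncbi_8278160 kept the call in every such fit. Left-out PEG libraries cost ncbi_8262851 (2 of 6, up to 0.106), ncbi_8262358 (3 of 6, up to 0.255), ncbi_8278871 (7-day replicate 2, adjusted p = 0.0664) and ncbi_8261302 (7-day replicate 2, adjusted p = 0.0618) the call. Every one of the 6 fits without a PEG library lost ncbi_8288500 (adjusted p up to 0.131).

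Several genes of fermentation and of the alternative route of respiration fell. Pyruvate decarboxylase is the entry to ethanol fermentation, and pyruvate decarboxylase 1 (ncbi_8283141), one of the most abundant genes that fell, had 2319, 1934 and 1071 FPKM at 3 days and 420, 260.5 and 344 FPKM at 7 days (-2.55 ± 0.43, SE, adjusted p = 0.00391). A neighbouring pair of L-lactate dehydrogenase B genes fell, ncbi_8276936 with 42.5, 28.7 and 25.4 FPKM at 3 days and 2.81, 7.48 and 2.31 FPKM at 7 days (-3.14 ± 0.56, SE, adjusted p = 0.00592) and ncbi_8276935 with 129, 170.3 and 179.8 FPKM at 3 days and 48, 51.6 and 49.9 FPKM at 7 days (-1.86 ± 0.21, SE, adjusted p = 0.000224). Alcohol dehydrogenase-like 3 (ncbi_8288858), from a low level, rose by 2.07 ± 0.55. The low-oxygen list thus had 1 higher and 3 lower of 22 (18.2% called). Ubiquinol oxidase, the alternative oxidase that lets electrons bypass the proton-pumping steps of mitochondria (ncbi_8262674), had 270.4, 443 and 350.4 FPKM at 3 days and 80.9, 60 and 92.5 FPKM at 7 days (-2.36 ± 0.39, SE, adjusted p = 0.0033). Internal alternative NAD(P)H dehydrogenase A2 (ncbi_8281747, -3.61 ± 0.65) and an external one (ncbi_8275362, -2.12 ± 0.49) completed 0 higher and 3 lower of 8, in a list drawn up after values were seen. Of 73 genes of the standard respiratory chain none was called, and 62 had values below 0. Their median was -0.28, and -0.09 with library totals. Because the alternative list was made after values were seen, the shares called in these lists cannot be set against each other. With any 1 PEG library left out, lactate dehydrogenase ncbi_8276936, its neighbour, ubiquinol oxidase, pyruvate decarboxylase 1 and dehydrogenase A2 stayed called. With both libraries nearest to the untreated roots left out, 2 genes of each of these lists, low oxygen and alternative respiration, were lower and 0 higher. Losses with 1 PEG library left out were found for ncbi_8288858 (5 of 6, up to 0.143) and ncbi_8275362 (5 of 6, up to 0.104).

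Some redox and detoxification genes fell. Glutathione S-transferases join glutathione to reactive compounds, and of 43 tested 0 rose and 5 fell (11.6% called). U9 (ncbi_8277424) had 395, 139.7 and 226 FPKM at 3 days and 45.1, 59.6 and 59.8 FPKM at 7 days (-2.40 ± 0.33, SE, adjusted p = 0.00126), and U7-like (ncbi_8279814) 9.84, 20.8 and 33.1 FPKM at 3 days and 1.31, 3.66 and 2.93 FPKM at 7 days (-3.21 ± 0.60, SE, adjusted p = 0.00752). The others were ncbi_8284306 (-1.90 ± 0.37), ncbi_8265677 (-1.35 ± 0.34) and DHAR3 (ncbi_8287964, -1.17 ± 0.25). A glutathione peroxidase (ncbi_8264294), which removes peroxides, had 105, 84 and 86.5 FPKM at 3 days and 29.7, 24.2 and 23.7 FPKM at 7 days (-1.99 ± 0.42, SE, adjusted p = 0.0138) and was the only call among 32 enzymes against reactive oxygen. Glutaredoxin-C9 (ncbi_8288062) had 505, 839 and 413 FPKM at 3 days and 217, 186 and 161 FPKM at 7 days (-1.82 ± 0.38, SE, adjusted p = 0.0126), and a second C9-like gene (ncbi_8269112) fell by 1.23 ± 0.32. Thioredoxin H-type 3 (ncbi_8275793) had 1608, 2912 and 2774 FPKM at 3 days and 1129, 848 and 762 FPKM at 7 days (-1.58 ± 0.32, SE, adjusted p = 0.0116), whereas the chloroplast thioredoxin F (ncbi_8274272) rose by 1.45 ± 0.27. Class III peroxidases of the wall had 2 higher and 0 lower of 54, peroxidase 10-like (ncbi_8283272, 2.68 ± 0.54) and cationic peroxidase 1-like (ncbi_8269361, 1.68 ± 0.32). Leaving out any 1 PEG library kept the calls of GST U9 and GST U7-like. No call remained for the peroxidase ncbi_8264294 without 7-day replicates 2 and 3 (adjusted p up to 0.0761), glutaredoxin-C9 without 3-day replicate 2 or 7-day replicates 2 and 3 (adjusted p up to 0.0673) and thioredoxin H-type 3 without 7-day replicates 2 and 3 (adjusted p up to 0.0679). With both libraries nearest to the untreated roots left out 2 glutathione S-transferases and 1 thioredoxin or glutaredoxin were lower, 1 class III peroxidase was higher and no enzyme against reactive oxygen was called. Calls also held for ncbi_8284306, ncbi_8274272 and ncbi_8269361 in each of these fits. For ncbi_8265677 (5 of 6, up to 0.147), ncbi_8287964 (2 of 6, up to 0.0881), ncbi_8269112 (4 of 6, up to 0.157) and ncbi_8283272 (7-day replicate 2, adjusted p = 0.0562) the call ended on leaving out single libraries.

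Enzymes of the first steps of sulfate assimilation fell. ATP sulfurylase 1 (ncbi_8280214) had 1076, 342 and 594 FPKM at 3 days and 117, 259.9 and 183 FPKM at 7 days (-2.05 ± 0.40, SE, adjusted p = 0.00921), and 5'-adenylylsulfate reductase 1 (ncbi_8284186), the next enzyme, had 35.7, 53.4 and 84.8 FPKM at 3 days and 12.6, 33.2 and 13.1 FPKM at 7 days (-1.76 ± 0.36, SE, adjusted p = 0.0114). A cyanoalanine/cysteine synthase D1-like gene (ncbi_8288432) rose by 2.08 ± 0.46; this list of 26 was made after values were seen. Amino acid transporters, also listed after values were seen, had 3 higher and 4 lower of 36. Lysine histidine transporter-like 8 (ncbi_8265940) had 399.6, 352 and 389 FPKM at 3 days and 110.5, 139 and 91 FPKM at 7 days (-1.93 ± 0.33, SE, adjusted p = 0.00472), and cationic amino acid transporter 1-like (ncbi_8266538) 77.7, 59.8 and 78.6 FPKM at 3 days and 18.6, 20.5 and 26.3 FPKM at 7 days (-1.91 ± 0.26, SE, adjusted p = 0.00112). Lysine histidine transporter 1-like (ncbi_8271789) fell by 1.81 ± 0.33 from 916 FPKM on average. The vacuolar amino acid transporter 1-like (ncbi_8281805) rose instead, with 1.15, 0.93 and 3.95 FPKM at 3 days and 44.2, 41.1 and 17.8 FPKM at 7 days (3.92 ± 0.69, SE, adjusted p = 0.0058). ATP sulfurylase 1, transporter-like 8, the cationic transporter and the vacuolar transporter stayed called whichever PEG library was left out. Calls ended for the reductase without 7-day replicates 1 and 3 (adjusted p up to 0.0641). Of the sulfate list 1 was lower and of the amino acid transporters 2 were lower without both libraries nearest to the untreated roots, with 0 higher in both. Among the other genes of the paragraph, ncbi_8271789 kept the call in every such fit. Single libraries ended the calls of ncbi_8288432 (2 of 6, up to 0.0863).

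Genes of wall barriers, lignin and defence were split. A cinnamyl-alcohol dehydrogenase family gene (ncbi_8260964), of a family that includes the last enzyme of lignin monomer synthesis, had 257, 212 and 251 FPKM at 3 days and 10.1, 9.86 and 18.3 FPKM at 7 days (-4.42 ± 0.60, SE, adjusted p = 0.00126). The lowest 3-day library was far above the highest 7-day one. Untreated roots held 5.23, 6.17 and 7.29 FPKM at 3 days and 44.2, 10.6 and 7.49 FPKM at 7 days. Caffeoyl-CoA O-methyltransferase At4g26220 (ncbi_8265095, -2.37 ± 0.49) and cinnamoyl-CoA reductase 1 (ncbi_8274312, -1.46 ± 0.38) fell, and 3 4-coumarate-CoA ligase-like genes rose (ncbi_8278533, 3.23 ± 0.52, ncbi_8271779, 1.17 ± 0.30, and ncbi_8275217, 0.87 ± 0.23). CASP-like proteins belong to the family that builds the Casparian strip, and 1D1 (ncbi_8262392) had 1312, 1720 and 1641 FPKM at 3 days and 405, 380.1 and 581 FPKM at 7 days (-1.96 ± 0.30, SE, adjusted p = 0.00232). Type 1E1 (ncbi_8262393, -2.96 ± 0.62), 4B1 (ncbi_8263139, -2.04 ± 0.45) and ncbi_8271450 (-2.02 ± 0.51) fell too, while 4A3 (ncbi_8289016, 0.74 ± 0.20) and a suberin-linked feruloyl transferase (ncbi_8275769, 1.60 ± 0.28) rose. A short-chain dehydrogenase/reductase (ncbi_8276521) had 277, 217 and 464 FPKM at 3 days and 16.1, 34.2 and 27.3 FPKM at 7 days (-3.82 ± 0.41, SE, adjusted p = 0.000196). With any 1 PEG library left out, the cinnamyl-alcohol dehydrogenase, CASP-like 1D1 and the short-chain dehydrogenase stayed called. Not called any more were the methyltransferase without 3-day replicate 2 or 7-day replicate 2 (adjusted p up to 0.0732) and CASP-like 1E1 without 3-day replicate 1 or 7-day replicates 2 and 3 (adjusted p up to 0.0752). Without both libraries nearest to the untreated roots the lignin list had 1 higher and 2 lower and the Casparian and suberin list 1 higher and 2 lower. The same leave-one-out fits all kept ncbi_8278533 and ncbi_8275769. Calls that depended on single PEG libraries were those of ncbi_8274312 (5 of 6, up to 0.153), ncbi_8271779 (5 of 6, up to 0.147), ncbi_8263139 (3 of 6, up to 0.107) and ncbi_8271450 (4 of 6, up to 0.131). Every one of the 6 fits without a PEG library lost ncbi_8275217 (adjusted p up to 0.136) and ncbi_8289016 (adjusted p up to 0.149).

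Among 104 defence proteins 3 rose and 8 fell (10.6% called). Hevamine-A (ncbi_8277059), a chitinase, had 191, 191 and 168 FPKM at 3 days and 39.2, 51.9 and 54.3 FPKM at 7 days (-2.11 ± 0.23, SE, adjusted p = 0.000196), and another chitinase family gene (ncbi_8277058) fell by 1.52 ± 0.32. Endochitinase PR4-like (ncbi_8280782, -1.78 ± 0.31), a thaumatin-like protein (ncbi_8270002, -3.45 ± 0.64) and chitinase 2-like (ncbi_8278036, -2.81 ± 0.48) were further falls. PR-1 proteins rose, ncbi_8277520 with 3.87, 2 and 5.45 FPKM at 3 days and 33.5, 75.7 and 57 FPKM at 7 days (3.67 ± 0.89, SE, adjusted p = 0.0318) and ncbi_8268873 with 0.23, 0.24 and 0.56 FPKM at 3 days and 1.34, 14.1 and 17 FPKM at 7 days (4.60 ± 1.15, SE, adjusted p = 0.0348). ABC transporters and genes named as drug resistance proteins had 4 higher and 4 lower of 87, and the largest fall was pleiotropic drug resistance protein 1-like (ncbi_8280248) with 67, 64.3 and 146 FPKM at 3 days and 5.26, 2.22 and 3.46 FPKM at 7 days (-4.80 ± 1.28, SE, adjusted p = 0.046). A calmodulin (ncbi_8258834), a calcium sensor, had 69, 31.4 and 49.3 FPKM at 3 days and 2.08, 6.4 and 3.09 FPKM at 7 days (-3.89 ± 0.49, SE, adjusted p = 0.000633). Leaving out any 1 PEG library kept the calls of hevamine-A and the calmodulin. The call was lost for PR-1 ncbi_8277520 without 3-day replicates 1, 2 and 3 or 7-day replicates 2 and 3 (adjusted p up to 0.114), PR-1 ncbi_8268873 without 3-day replicates 1, 2 and 3 or 7-day replicates 2 and 3 (adjusted p up to 0.116) and pleiotropic drug resistance protein 1-like without 3-day replicates 1, 2 and 3 or 7-day replicates 1, 2 and 3 (adjusted p up to 0.163). In the fit without both libraries nearest to the untreated roots 2 defence genes, 1 ABC transporter and 1 calcium gene were lower, with 0 higher. Calls also held for ncbi_8280782, ncbi_8270002 and ncbi_8278036 in each of these fits. Fits without 1 PEG library lost ncbi_8277058 (2 of 6, up to 0.0761).

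Enzymes that decorate small molecules changed in both directions. Of 33 UDP-glycosyltransferases, which attach sugars, 3 rose and 3 fell (18.2% called), and of 100 cytochrome P450 genes 5 rose and 3 fell (8% called). UDP-glycosyltransferase 91C1 (ncbi_8280354) had 3.72, 3.22 and 3.34 FPKM at 3 days and 16.3, 21.4 and 20.8 FPKM at 7 days (2.32 ± 0.26, SE, adjusted p = 0.000196), and 85A7 (ncbi_8281664) had 8.98, 6 and 5.24 FPKM at 3 days and 0.08, 0.64 and 0 FPKM at 7 days (-4.91 ± 0.82, SE, adjusted p = 0.00391). The P450 76A1-like gene (ncbi_8274897) rose with 2.63, 1.98 and 3.82 FPKM at 3 days and 10.6, 22.7 and 15.6 FPKM at 7 days (2.33 ± 0.32, SE, adjusted p = 0.00126), while 714A1-like (ncbi_8275638) fell with 63.2, 184 and 130.2 FPKM at 3 days and 35.5, 33.7 and 37.4 FPKM at 7 days (adjusted p = 0.016). In 3 P450 89A2-like genes that lie close together in the reference annotation the directions were mixed, ncbi_8284298 at 1.17 ± 0.26, ncbi_8284294 at -2.65 ± 0.64 and ncbi_8284293 with 2 counts at 3 days against 77 at 7 days (ratio 36.2, 95% interval 9.70 to 305). Casbene synthase (ncbi_8259981), which makes a diterpene of castor, had 27.6, 12.2 and 18.8 FPKM at 3 days and 3.86, 5.33 and 8.09 FPKM at 7 days (-1.96 ± 0.44, SE, adjusted p = 0.0215). In flavonoid synthesis 5 of 41 genes rose and 1 fell (14.6% called). A flavonol 3-sulfotransferase-like gene (ncbi_8264689) rose by 2.61 ± 0.47 and a flavonol synthase (ncbi_8274085) by 2.48 ± 0.52, and an anthocyanidin glucosyltransferase 6-like gene (ncbi_8270517) fell with 271, 169.5 and 192 FPKM at 3 days and 78.4, 75.4 and 101 FPKM at 7 days (-1.49 ± 0.32, SE, adjusted p = 0.0138). UDP-glycosyltransferase 91C1, the 76A1-like gene, UDP-glycosyltransferase 85A7 and the 89A2-like gene ncbi_8284293 stayed called whichever PEG library was left out. No call remained for the 714A1-like gene without 3-day replicate 2 or 7-day replicates 2 and 3 (adjusted p up to 0.0826), casbene synthase without 3-day replicate 1 or 7-day replicates 1 and 2 (adjusted p up to 0.0973) and the anthocyanidin gene without 7-day replicate 2 (adjusted p = 0.081). With both libraries nearest to the untreated roots left out, 2 glycosyltransferases were higher and 1 lower, 2 P450 genes higher and 1 lower, and 1 flavonoid gene higher and 0 lower. Among the other genes of the paragraph, ncbi_8264689 kept the call in every such fit. Left-out PEG libraries cost ncbi_8284298 (4 of 6, up to 0.0863), ncbi_8284294 (3 of 6, up to 0.12) and ncbi_8274085 (3 of 6, up to 0.06) the call.

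Several lists held no call at this threshold. These were 54 WRKY factors, 24 autophagy genes, 166 cytosolic and 90 organelle ribosomal proteins, 40 histones, 30 tubulins and actins and 6 respiratory burst oxidases. Small shifts within them cannot be seen gene by gene. Cytosolic ribosomal proteins had values below 0 in 141 of 166 genes (median -0.25), and the untreated roots had a median of 0.27 for them. Gene length moved with this. The shortest 10% of genes had a median of -0.22 in PEG and 0.18 in untreated roots, and the longest 10% had 0.17 and -0.20. The ribosomal median was -0.14 with the length trend removed, -0.05 with library totals and -0.10 without both libraries nearest to the untreated roots.

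None of the 16085 genes was called between untreated roots of 7 and 3 days by edgeR, with 179 at an unadjusted p below 0.05 (1.11%). DESeq2 called 0 (237 unadjusted), and edgeR on the compared groups alone had 100 unadjusted. A share of 1.11% is below what a threshold of 0.05 gives without any change, so the test was conservative here. In untreated roots 542 genes differed at least 2-fold, and the lack of calls does not show that these roots stayed alike. In PEG 3081 genes (19.2%) had an unadjusted p below 0.05. The untreated change of the 366 genes that rose in PEG had a median of 0.04 on the log2 scale, with the middle 50% between -0.16 and 0.19. For the 332 that fell it had a median of -0.11, with the middle 50% between -0.31 and 0.10. The PEG and untreated comparisons share no library.

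The levels of untreated roots were, for the genes plotted by library, as follows (mean ± SD, n = 3). The 3.1-like nitrate transporter partner (ncbi_8278271) held 3091 ± 484 FPKM at 3 days and 3476 ± 228 FPKM at 7 days, and the oligopeptide transport family gene (ncbi_8284629) held 134 ± 45.9 FPKM at 3 days and 149 ± 45.2 FPKM at 7 days. Plasma membrane ATPase 4 (ncbi_8286312) held 904 ± 130.5 FPKM at 3 days and 951 ± 93.5 FPKM at 7 days, and polygalacturonase ncbi_8282586 held 94.2 ± 70.8 FPKM at 3 days and 80.3 ± 41.5 FPKM at 7 days. For these 4 genes the 3-day PEG libraries all lay below every untreated library of both days. Chlorophyll a-b binding protein 151 (ncbi_8273545) stood at 82 ± 25.4 FPKM at 3 days and 72.7 ± 20.6 FPKM at 7 days, below all 7-day PEG libraries. Pyruvate decarboxylase 1 (ncbi_8283141) held 399 ± 188 FPKM at 3 days and 379 ± 178 FPKM at 7 days, and ubiquinol oxidase (ncbi_8262674) held 38.5 ± 17.2 FPKM at 3 days and 37.3 ± 12.7 FPKM at 7 days. ACC synthase 1 (ncbi_8286682) held 1.15 ± 0.883 FPKM at 3 days and 1.18 ± 0.513 FPKM at 7 days, zeaxanthin epoxidase ncbi_8267999 held 7.07 ± 4.62 FPKM at 3 days and 9.18 ± 5.25 FPKM at 7 days and sugar transport protein 13-like (ncbi_8259103) held 135 ± 134 FPKM at 3 days and 84.2 ± 40.1 FPKM at 7 days. In these 5 the 3-day PEG libraries all lay above every untreated library. How far levels at 7 days of PEG differed from untreated roots was not tested here.

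The difference between the change in PEG and that in untreated roots was tested directly as an interaction of PEG and time, and 38 genes were called (0.236%), 22 with a more positive change in PEG (0.137%) and 16 with a more negative one (0.0995%). All 38 were also called between 3 and 7 days of PEG, but the interaction uses the same 6 PEG libraries, so these calls are not independent. DESeq2 called 245. Among those with a described product and at least 5 FPKM in a PEG group, the largest differences were those of the 2.1-like nitrate transporter (4.98 ± 0.78, adjusted p = 0.0113), RLK1 (4.39 ± 0.70, adjusted p = 0.0119), PIP2-8-like (3.96 ± 0.68, adjusted p = 0.0194), the oligopeptide transport family gene (3.65 ± 0.55, adjusted p = 0.0111) and the F-box protein (3.65 ± 0.58, adjusted p = 0.0119), on the log2 scale. In the other direction they were the cinnamyl-alcohol dehydrogenase (-6.13 ± 0.81, adjusted p = 0.00498), zeaxanthin epoxidase ncbi_8267996 (-5.28 ± 1.02, adjusted p = 0.0414), the calmodulin (-4.79 ± 0.65, adjusted p = 0.00498), the short-chain dehydrogenase (-4.47 ± 0.55, adjusted p = 0.00498) and the phosphate transporter (-3.77 ± 0.52, adjusted p = 0.00498). For the other 660 genes called in PEG, a difference from the change in untreated roots did not pass this test, which does not show that the changes were alike. With 1 library of the 12 left out, the interaction count ran from 14 (without 7-day untreated replicate 1) to 46 (without 3-day untreated replicate 2). It was 11 without both libraries nearest to the untreated roots.

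**Figure D4:**
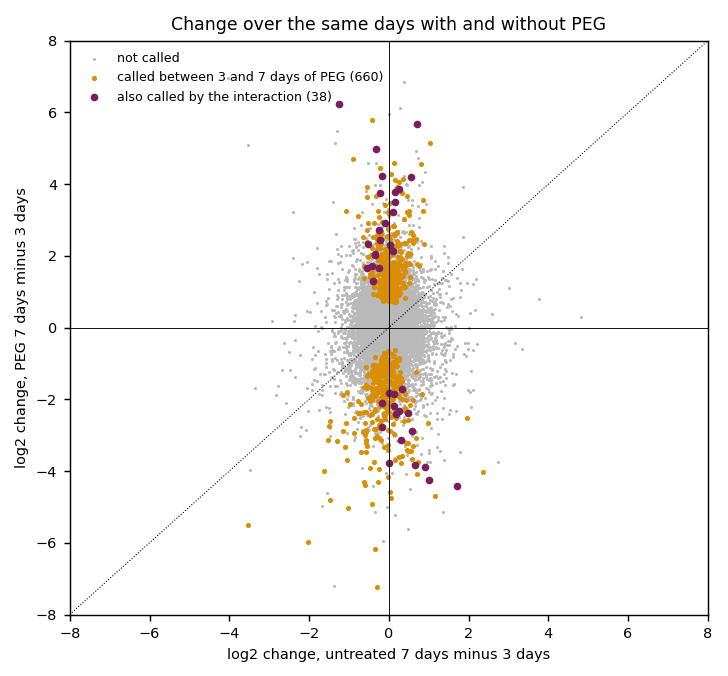
Log2 change from 3 to 7 days in PEG (vertical axis) against that in untreated roots (horizontal axis), 1 point per tested gene, with a dotted line of equal change. The 660 orange and 38 purple points are called in PEG, and the purple ones also by the interaction; most called genes lie near 0 on the horizontal axis.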

How the data were processed

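The table lists, per gene and library, estimated counts (expected counts) and FPKM as deposited by the authors, with column headers naming both. About 98% of counts are whole; which aligner, counter and genome build were used is not given in the labels or headers used here. Of 36 sample columns, 3 were not used, the FPKM of untreated roots at 11 days, because title and description name different columns. Counts were rounded and tested with edgeR 4.0.16 (R 4.3.3; TMM scaling, filterByExpr with a minimum of 10 counts and a total of 15, 1 mean per group over all 18 libraries, robust quasi-likelihood F test), with Benjamini-Hochberg adjustment over all tested genes and calls at adjusted p below 0.05. Levels are the authors' FPKM, scaled per gene length, and log2 changes come from counts. Log2 changes are 7 days minus 3 days. Intervals of counts cover counting error only.

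Product names are the authors' best-hit descriptions; paralogs and overlapping genes may share reads, and the strand setting is not given. A reference annotation held 18929 of 21332 IDs and was used for neighbours only. The members and the 60 gene lists were chosen with earlier results of these data known, 7 more lists were added after values were seen, and some name patterns were corrected for false matches. Genes were named by a rule: among called genes of at least 5 FPKM in a group, without overlap and with a described product, the 12 largest changes, the 6 most abundant and up to 2 per list in each direction, and 5 per direction of the interaction. Further called members were named after their values were seen. Alternatives used DESeq2 1.42.0 and limma 3.58.1. The procedure was also run on simulated counts of independent libraries. Those counts did not hold the uneven PEG libraries seen here, so the run says nothing on how firm single calls are.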

Additional observations from a re-analysis of the deposited data

Results flagged for a closer look

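For 17 of the genes described or named by the rule, the change from 3 to 7 days differed between PEG and untreated roots by the interaction test (edgeR quasi-likelihood, adjusted p below 0.05). Values are differences of log2 changes, PEG minus untreated, each with its SE.

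Those with the more positive change in PEG were led by the 2.1-like nitrate transporter ncbi_8275209 (4.98 ± 0.78), which rose by 5.69 in PEG and differed by 0.71 in untreated roots. The receptor kinase RLK1 (ncbi_8272654) stood at 4.39 ± 0.70 and the aquaporin PIP2-8-like (ncbi_8278125) at 3.96 ± 0.68. The oligopeptide transport family gene (ncbi_8284629) and the F-box protein (ncbi_8276207) were both at 3.65, with SEs of 0.55 and 0.58. A nicotianamine synthase-like gene (ncbi_8258799) was at 3.61 ± 0.71, the kinase At4g08850 (ncbi_8260794) at 2.99 ± 0.58 and the P450 76A1-like gene (ncbi_8274897) at 2.85 ± 0.43. A senescence-associated family gene (ncbi_8278141) was at 2.66 ± 0.45, UDP-glycosyltransferase 91C1 (ncbi_8280354) at 2.28 ± 0.35 and bHLH77-like (ncbi_8270326) at 1.92 ± 0.37.

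Those with the more negative change were the cinnamyl-alcohol dehydrogenase (ncbi_8260964, -6.13 ± 0.81), zeaxanthin epoxidase ncbi_8267996 (-5.28 ± 1.02), the calmodulin (ncbi_8258834, -4.79 ± 0.65) and the short-chain dehydrogenase (ncbi_8276521, -4.47 ± 0.55). The phosphate transporter (ncbi_8275509) was at -3.77 ± 0.52 and glutathione S-transferase U9 (ncbi_8277424) at -2.58 ± 0.45. In the cinnamyl-alcohol dehydrogenase the untreated value was 1.71, so that part of its difference came from untreated roots, where no gene passed the test. Untreated replicate 1 stood out there at 7 days, at 44.2 FPKM against 10.6 and 7.49 FPKM in the others. The untreated libraries at 3 days held 5.23, 6.17 and 7.29 FPKM.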

How the results depend on the processing

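The count of genes called between 3 and 7 days of PEG was 698 (366 higher, 332 lower, 619 at 2-fold or more), with 38 called by the interaction. DESeq2 gave 1407 (670, 737 and 1103), with 245. A fit of the compared groups alone gave 198 (67, 131 and 198), with 19, and an adjusted p below 0.01 gave 191 (95, 96 and 189), with 5. Without the library of each PEG group nearest to the untreated ones, an alternative chosen after the data were seen, there were 149 (70, 79 and 149), with 11. Library totals gave 635 higher and 223 lower. With limma 586 genes were higher and 200 lower on log2(FPKM + 0.1), and 500 higher and 210 lower on log2(FPKM + 1), with 18 called by the interaction. DESeq2 size factors, no filter on low counts and removal of the gene length trend kept the count of all calls between 614 and 712. Leaving out 1 of 12 libraries gave 216 to 827 calls (PEG libraries 216 to 532), 118 to 396 higher (118 to 271), 98 to 431 lower (98 to 264), 212 to 720 at 2-fold or more (212 to 502) and 14 to 46 by the interaction. The cause of these differences was not tested. Untreated roots had 0 calls under every alternative run. None of the 144 genes named by the rule reversed, which the rule largely fixed in advance by asking for no overlap. Of them, 30 were called under every alternative other than the stricter threshold.

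Replicate numbers were not taken to pair the samples. Deviations of same-numbered PEG libraries correlated at -0.46, -0.544 and -0.017, and no PEG library matched its own number best. Those of untreated libraries correlated at -0.324, -0.529 and 0.487, where replicate 3 alone matched its own number best. With the replicate number as a block, 488 genes were called, 268 higher and 220 lower, with 21 by the interaction.

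The search for promoter motifs was not run, since no promoter sequences were used here. Totals of 7800442 to 10817476 counts limit what can be seen of low genes, so that folds of genes with a few counts have wide intervals.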

Other observations

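Other abundant transcripts also moved. A blue copper protein-like gene (ncbi_8270218), of a family of small copper proteins of the cell surface, was the most abundant called gene that fell, at 2510 FPKM on average over the 6 PEG libraries, and it fell by 1.35 ± 0.34 on the log2 scale (SE, adjusted p = 0.0352 by edgeR's quasi-likelihood test). PLANT CADMIUM RESISTANCE 2-like (ncbi_107261952) averaged 1490 FPKM and fell by 1.55 ± 0.38 (adjusted p = 0.0335). A WAT1-related gene (ncbi_8259161) at 172 FPKM rose by 1.75 ± 0.39 (adjusted p = 0.0192), and an EG45-like domain gene (ncbi_8275867) at 150 FPKM rose by 1.56 ± 0.41 (adjusted p = 0.043) on that scale. These 4 calls depended on single PEG libraries. Each of the 6 fits without 1 of them lost the EG45-like gene (adjusted p up to 0.132) and PLANT CADMIUM RESISTANCE 2-like (up to 0.121). The blue copper protein-like gene kept its call in 1 of the 6 such fits (up to 0.14) and the WAT1-related gene in 2 (up to 0.0675). An aluminum-activated malate transporter 10-like gene (ncbi_8288820), of a family of organic anion channels, had one of the largest rises, 4.56 ± 0.70 (adjusted p = 0.00259), and kept its call without any 1 of these libraries. An organic cation/carnitine transporter 3-like gene (ncbi_8270392) fell by 4.08 ± 0.82 (adjusted p = 0.0107) and was no longer called without 7-day replicate 3 (adjusted p = 0.0562). Cyclin-D1-1-like (ncbi_8281928), of the cyclins that start the cell cycle, rose by 2.02 ± 0.33 (adjusted p = 0.0033) and kept its call in all 6 such fits, and 3 of 141 genes of cyclins, kinesins and DNA replication rose with 0 lower (2.13% called). Without both libraries nearest to the untreated roots 1 of them rose.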
